A study of Mus musculus with 6 samples.

Results

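The comparison described here set the T cell receptor beta chains of 2 treated tumors against those of 2 spleens, 4 of the 6 libraries of a mouse melanoma study. The members were the libraries whose titles name them as treated tumor or spleen, and they were matched by the number (1 or 2) in those titles. The distant tumors took no part in the comparison. C57BL/6 mice received MO4 cells, a subline of the B16F10 melanoma of that strain which makes ovalbumin, as subcutaneous injections of 100000 cells at the right and at the left hindlimb on day 0. Around the right tumor, 1000000 cells called IFN-α-iPSC-pMC in the labels were injected on each of days 5, 6, 7, 12 and 13. Tumor RNA was taken on day 14. Treated tumor 1 and treated tumor 2 are these right-sided tumors, and spleen 1 and spleen 2 come from mice that carried both tumors and received the same injections. Thus the spleens are not untreated controls, and no library from an untreated mouse was analysed here. The design text speaks of 2 mice, and the labels do not say in words that a number stands for a mouse. Only beta chain transcripts were amplified, so that markers of T cell subsets or of other cells could not be examined, and fewer T cells of a clone and less receptor RNA per cell cannot be told apart.

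A T cell receptor beta chain is assembled in the thymus by joining 1 V segment, 1 D segment and 1 J segment, with bases trimmed and added at random at the joints. The stretch across the joints encodes the third complementarity-determining region (CDR3), the loop that lies over the peptide presented by an MHC molecule. Cells descended from the same T cell carry the same V, J and CDR3, so a sequence that takes a large share of a library can mark an expanded clone. Spleen holds a broad sample of circulating T cells, whereas a tumor holds those that entered it and remained. Here a clonotype is a TRBV gene, a TRBJ gene and a CDR3 amino acid sequence without a stop or frameshift mark, counted in reads.

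Some of the CDR3 sequences that were enriched in a treated tumor over spleen are shown first, since each took over 1% of the reads of its treated tumor. The following 12 are among the 20 clonotypes, 10 per number, that had the most tumor reads of all clonotypes enriched over the spleen of the same number, and each has at most 14 residues. The other 8 are named below by their genes and CDR3 length.
Treated tumor 1, TRBV19 with TRBJ2-1: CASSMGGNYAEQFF
Treated tumor 1, TRBV13-1 with TRBJ2-7: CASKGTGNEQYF
Treated tumor 1, TRBV13-2 with TRBJ2-5: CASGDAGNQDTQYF
Treated tumor 1, TRBV16 with TRBJ2-7: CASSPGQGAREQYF
Treated tumor 1, TRBV20 with TRBJ2-5: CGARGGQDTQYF
Treated tumor 2, TRBV16 with TRBJ2-7: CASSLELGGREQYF
Treated tumor 2, TRBV5 with TRBJ2-7: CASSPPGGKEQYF
Treated tumor 2, TRBV13-1 with TRBJ1-6: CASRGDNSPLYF
Treated tumor 2, TRBV16 with TRBJ2-5: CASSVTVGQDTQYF
Treated tumor 2, TRBV20 with TRBJ2-4: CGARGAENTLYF
Treated tumor 2, TRBV13-3 with TRBJ2-7: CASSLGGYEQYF
Treated tumor 2, TRBV5 with TRBJ2-3: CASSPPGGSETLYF

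The germline ends below show which residues of such a loop match its V and J genes. The residues between these ends can come from the D segment, from bases added at the joints or, in part, from V or J bases. The last point holds because only whole residues were matched, while a V or J end can also supply part of a codon. These sources were not told apart. They are the annotated segments of the genes that the results turn on, from GENCODE M21 transcripts on mouse build GRCm38, written 5′ to 3′ on the coding strand, with the bases that encode the start or the end of CDR3 in capitals. For V genes the last 30 bases of the segment are given, and for J genes the whole segment. The coordinates beside each name are those of the whole gene.
TRBV5, chr6:41062332-41062803, plus strand: agctgtctattttTGTGCCAGCAGCCAAGA
TRBV16, chr6:41151740-41152230, plus strand: agcggtgtatcttTGTGCAAGCAGCTTAGA
TRBV13-2, chr6:41121396-41121832, plus strand: catcagtgtacttcTGTGCCAGCGGTGATG
TRBV31, chr6:41557691-41558452, minus strand: ctggcttctacctcTGTGCCTGGAGTCTCA
TRBJ1-4, chr6:41534811-41534861, plus strand: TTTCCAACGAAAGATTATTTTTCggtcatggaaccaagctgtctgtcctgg
TRBJ1-6, chr6:41535554-41535606, plus strand: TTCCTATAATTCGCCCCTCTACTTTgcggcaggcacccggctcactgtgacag
TRBJ2-3, chr6:41543223-41543271, plus strand: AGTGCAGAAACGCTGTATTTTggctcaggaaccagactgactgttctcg
TRBJ2-7, chr6:41543810-41543856, plus strand: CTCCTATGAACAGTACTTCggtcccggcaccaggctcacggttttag
Read against these ends, the leading clonotype of treated tumor 2, with TRBV16 and TRBJ2-7, kept 5 residues of the V end and 4 of the J end and held 5 residues (ELGGR) between them. The TRBV5 and TRBJ2-7 clonotype kept 4 and 4 residues, with PPGGK between. Averaged over reads, the part between matched ends was 4.04 and 4.16 residues in the treated tumors and 4.09 and 4.11 in the spleens (difference 0.00019, exact permutation p = 1, two-sided). The treated tumors lay on either side of the spleens, and the smallest p that 2 libraries against 2 allow is 0.333. Counted once per clonotype, however, the mean was 6.12 and 6.42 residues in the treated tumors against 4.38 and 4.42 in the spleens, and over clonotypes of 2 or more reads it was 4.21 and 4.53 against 3.65 and 3.64, both above. Clonotypes whose CDR3 did not start with cysteine made up 10.7% and 11.4% of treated tumor clonotypes and 2.79% and 2.88% of spleen clonotypes, and their part in the result was not tested.

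Productive reads, those without a stop or frameshift mark, numbered 83171 and 56057 in treated tumors 1 and 2 and 96907 and 135599 in spleens 1 and 2. Their clonotypes numbered 12761, 7539, 64726 and 92233. The 10 leading clonotypes held 15.9% (exact 95% binomial interval 15.6 to 16.1) of treated tumor 1 and 22.0% (21.7 to 22.4) of treated tumor 2. They held 1.11% (1.05 to 1.18) of spleen 1 and 1.01% (0.959 to 1.07) of spleen 2. The protocols describe PCR and mention no molecular identifiers, so that reads are not taken as independent molecules, and intervals and floors cover counting error only. Clonotypes that differed by 1 residue from one of at least 50 times their reads, with the same TRBV and TRBJ, made up 16.8% and 24.0% of clonotypes in the treated tumors and 0.173% and 0.0932% in the spleens. Only a clonotype of at least 50 reads can have such a variant. In spleen 1, 22 clonotypes reached 35 reads, and in spleen 2, 6 reached 73. Clonotypes of 100 reads or more numbered 109 and 85 in the treated tumors. The shares of variants thus depend on how many clonotypes were large enough. These variants held 3.71% and 4.75% of treated tumor reads. Their part in gene usage, CDR3 length and CDR3 composition counted once per clonotype was measured by merging them. Their part in the residues between germline ends, and in how far V and J depended on each other, was not tested.

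Usage of the TRBV genes did not pass the test for any gene, while its spread was larger among the treated tumors. By edgeR's quasi-likelihood test, 0 of 23 TRBV genes (percent called 0%) had a Benjamini-Hochberg adjusted p under 0.05. At an unadjusted p under 0.05 there were 4, of which TRBV30 was higher and TRBV12-1, TRBV17 and TRBV21 were lower in treated tumors, and DESeq2 also called 0. For 12 of 23 genes (52.2%) the groups did not overlap, with both treated tumors above both spleens for 5 genes and below them for 7. The SD among treated tumors exceeded that among spleens for 18 of 23 genes. Without treated tumor 1 edgeR called 12 genes, and without treated tumor 2 also 12, the spread then coming from the spleens alone.

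TRBV5 had the highest mean share in treated tumors and the largest excess in percentage points. It took 9.35% of the reads of treated tumor 1, 17.8% of treated tumor 2, 7.81% of spleen 1 and 7.66% of spleen 2. Both treated tumors were above both spleens, and treated tumor 2 stood far from the other 3 libraries (13.6% ± 5.99 against 7.74% ± 0.108, SD, n = 2 each). The log2 fold change was 0.81 (SE 0.46), with an adjusted p of 0.286 in edgeR's quasi-likelihood test. Its leading clonotype held 10.2% of its reads in treated tumor 1 and 17.4% in treated tumor 2, against 1.36% and 0.327% in the spleens. Of clonotypes, TRBV5 took 9.18% and 15.4% in the treated tumors against 7.09% and 7.21% in the spleens. With 1-residue variants merged as well, the log2 fold change over clonotypes was 0.67 at an adjusted p of 0.128 by edgeR.

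Downward differences made up 3 of the 5 largest of the genes with a mean share of at least 1%. TRBV12-1, one of the pair of genes that encode Vβ5 chains, held 3.34% and 1.44% of treated tumor reads and 5.27% and 5.37% of spleen reads, a log2 fold change of -1.15 (SE 0.42) at an adjusted p of 0.118 by edgeR. TRBV17 held 1.17% and 1.41% against 2.64% and 2.76%, a log2 fold change of -1.07 (SE 0.40) at an adjusted p of 0.118 by edgeR. TRBV31, the V gene that lies downstream of the J genes in the opposite orientation, held 4.12% and 2.18% against 6.13% and 5.13%, a log2 fold change of -0.84 (SE 0.42) at an adjusted p of 0.237 by edgeR. In all 3 genes both treated tumors were below both spleens, with ratios to the spleen of the same number between 0.269 and 0.672. TRBV20 went the other way, with 3.81% and 5.53% against 2.37% and 3.55%, a log2 fold change of 0.66 (SE 0.41) at an adjusted p of 0.326 by edgeR.

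For the other 4 of the 5 most used genes of the treated tumors the groups overlapped. TRBV13-2, one of the Vβ8 genes and the most used in both spleens, held 14.0% and 9.49% of treated tumor reads and 14.3% and 12.2% of spleen reads. TRBV16 held 4.45% of treated tumor 1 and 10.3% of treated tumor 2 beside 7.04% and 6.94% of the spleens. TRBV12-2, the other Vβ5 gene, was at 8.45% and 4.08% beside 6.18% and 5.09%. TRBV13-1 was at 5.47% and 7.55% beside 5.88% and 5.58%. A single clonotype held 37.8% of the TRBV16 reads of treated tumor 2 and 22.2% of the TRBV12-2 reads of treated tumor 1, whereas in the spleens the leading clonotypes of both genes held at most 1.002%. Counted once per clonotype with 1-residue variants merged, an alternative chosen after seeing the data, edgeR called 6 of 22 genes. TRBV14, TRBV23 and TRBV30 were then higher and TRBV12-1, TRBV17 and TRBV31 lower in treated tumors.

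**Figure D1:**
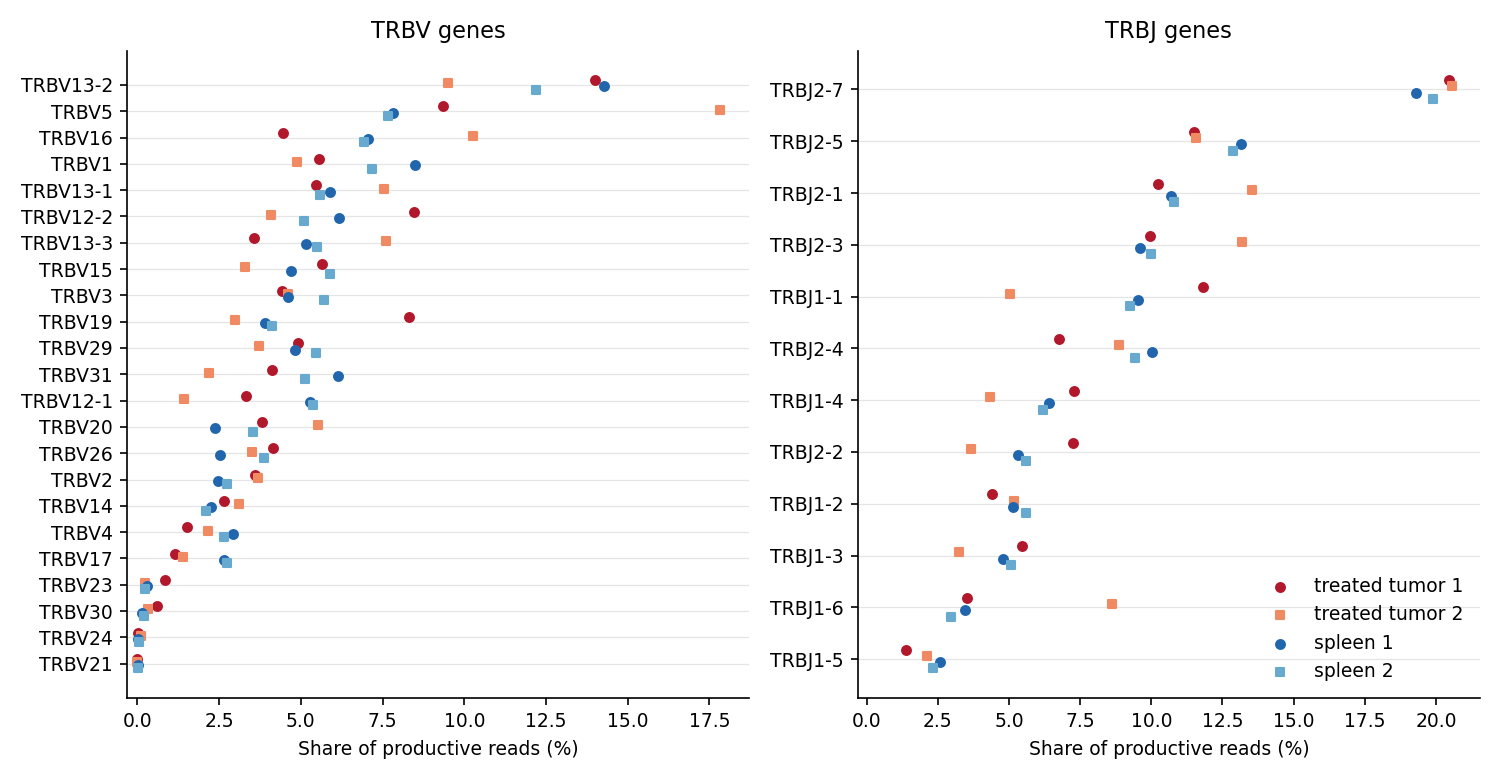
Share of productive reads (%) on the x axis for each TRBV gene (left) and TRBJ gene (right), with 1 point per library and no error bars. The 2 spleens lie close together, while the treated tumors spread, with treated tumor 2 at 17.8% for TRBV5 and at 8.64% for TRBJ1-6.

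The J genes lie in a TRBJ1 and a TRBJ2 cluster, each behind a D segment, and a clone carries J from either. Of 12 TRBJ genes 0 were called by edgeR (percent called 0%), with 1 at an unadjusted p under 0.05, TRBJ2-7, and DESeq2 called that gene. The groups did not overlap for 5 of 12 (41.7%), with 2 above and 3 below the spleens. Without treated tumor 1 edgeR called 8 J genes, without treated tumor 2 it called 3, and without spleen 2 it called TRBJ2-7 alone. TRBJ2-7, the most used J gene in every library, held 20.4% and 20.6% of treated tumor reads against 19.3% and 19.9% of spleen reads, a log2 fold change of 0.07 (SE 0.02) at an adjusted p of 0.363 by edgeR. TRBJ1-6 was at 3.51% in treated tumor 1 and at 8.64% in treated tumor 2, beside 3.45% and 2.97% in the spleens, a log2 fold change of 0.92 (SE 0.55) at an adjusted p of 0.448 by edgeR. Its excess was thus in treated tumor 2, where 1 clonotype held 30.4% of its reads. Of clonotypes, TRBJ1-6 took 3.57% and 9.32% in the treated tumors against 3.26% and 3.06% in the spleens. With 1-residue variants merged as well, the log2 fold change over clonotypes was 1.02 at an adjusted p of 0.388 by edgeR.

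Lower in both treated tumors were TRBJ1-5, with 1.39% and 2.12% against 2.59% and 2.34%, TRBJ2-4, with 6.76% and 8.86% against 10.04% and 9.43%, and TRBJ2-5, with 11.5% and 11.6% against 13.1% and 12.9%. None of the 3 passed the test (edgeR adjusted p between 0.404 and 0.448). TRBJ1-1 was at 11.8% and 5.05% beside 9.55% and 9.26%, and TRBJ2-2 at 7.23% and 3.68% beside 5.31% and 5.60%. TRBJ1-3, at 5.45% and 3.26% beside 4.81% and 5.06%, and TRBJ1-4, at 7.29% and 4.35% beside 6.40% and 6.21%, shared that order, highest in treated tumor 1 and lowest in treated tumor 2. TRBJ2-1 had the opposite order, with 10.2% and 13.5% beside 10.7% and 10.8%, and TRBJ2-3 was at 9.95% and 13.2% beside 9.60% and 9.98%. TRBJ1-2 was at 4.40% and 5.16% beside 5.15% and 5.59%. The TRBJ2 cluster as a whole held 66.1% and 71.4% of treated tumor reads and 68.1% and 68.6% of spleen reads, a difference of 0.465 percentage points (exact permutation p = 1, two-sided).

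In treated tumor reads, V and J were less independent of each other than in spleen reads. In the spleens their mutual information, which is 0 bits where the choice of V says nothing of J, was 0.0336 and 0.0267 bits at 56057 reads per library. In the treated tumors it was 0.421 and 0.538 bits at the same depth. The effective number of pairs, the number of equally used pairs that would give the same entropy, was 131 and 107 in the treated tumors and 174 and 181 in the spleens (difference -58.6, exact permutation p = 0.333, two-sided). The groups did not overlap on either measure. Counted once per clonotype, without merging of variants, the mutual information was 0.223 and 0.382 bits against 0.0439 and 0.0414 at 7539 clonotypes per library. Without the 10 leading clonotypes of each library it was 0.267 and 0.450 bits against 0.0276 and 0.0262 at 43711 reads. All reads of a clonotype carry 1 V and 1 J, so the measure over reads also depends on how large the clonotypes are. The part of other large clonotypes was not tested. The 10 leading pairs held 24.9% and 31.2% of treated tumor reads and 16.2% and 14.6% of spleen reads, and 33 and 25 pairs sufficed for 50% of treated tumor reads against 53 and 57 for the spleens.

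**Figure D2:**
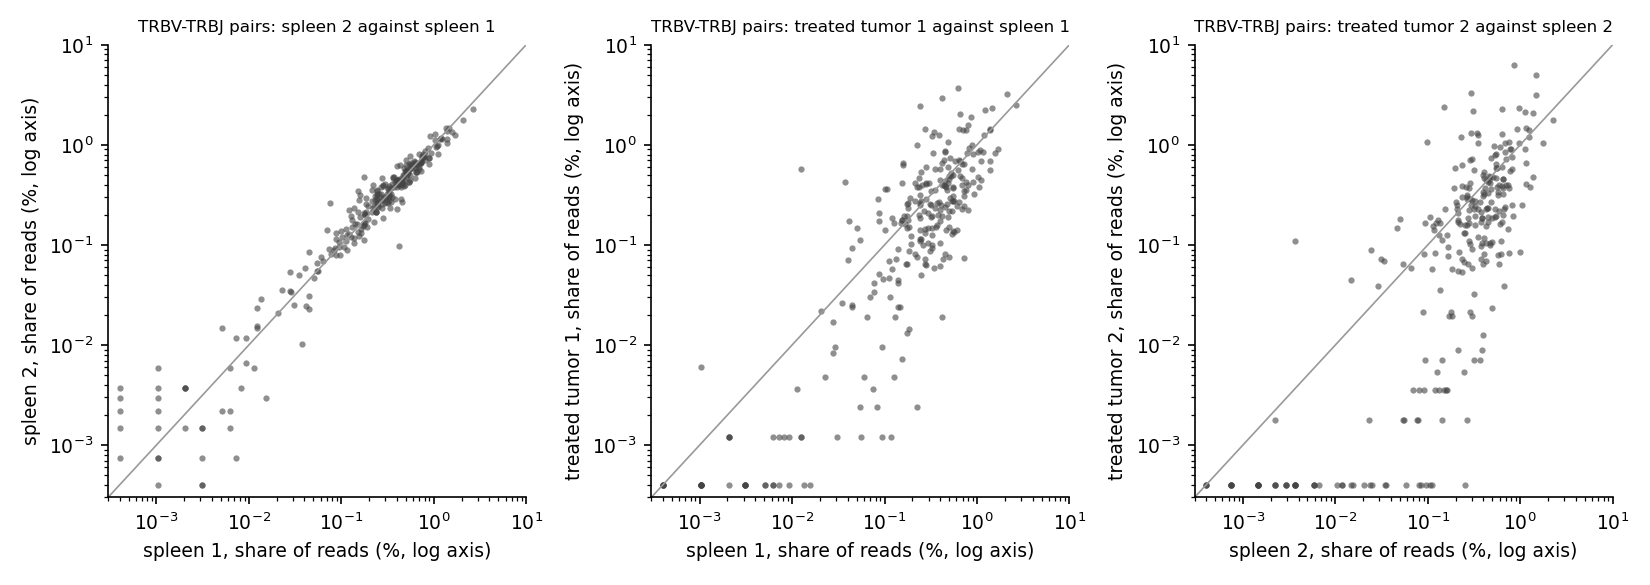
Share of productive reads (%, log axes) of each TRBV-TRBJ pair, spleen 2 against spleen 1 (left), treated tumor 1 against spleen 1 (middle) and treated tumor 2 against spleen 2 (right), with the line of equality. Pairs without a read lie at the edge. The spleens follow the line, with a Jensen-Shannon divergence of 0.00902 bits, and the treated tumors scatter around it, at 0.114 and 0.167 bits.

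Single pairs did not pass the test. Of 242 TRBV-TRBJ pairs tested, edgeR called 0 (percent called 0%), with 27 at an unadjusted p under 0.05 (3 higher, 24 lower) and a lowest adjusted p of 0.354, and DESeq2 called 8. Without treated tumor 1 edgeR called 160, and without treated tumor 2 also 160. The groups did not overlap for 131 of 242 pairs (54.1%), with both treated tumors above for 26 and below for 105. Relative to the library total, 86 pairs were higher and 156 lower by their fitted value (median log2 fold change -0.46), but TMM scaling moved the median by 0.64 and turned the split to 139 higher and 103 lower. The directions given for pairs are those of shares of all reads. The SD among treated tumors was the larger for 192 of 242 pairs.

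Of the 10 pairs with the highest mean share in treated tumors, TRBV5 with TRBJ2-3 led with 1.56% and 6.30% against 0.797% and 0.859% in the spleens, a log2 fold change of 2.25 (SE 0.90) at an adjusted p of 0.421 by edgeR. TRBV16 with TRBJ2-7 held 2.35% and 5.03% against 1.45% and 1.47%, and TRBV29 with TRBJ2-7 held 1.88% and 1.44% against 0.864% and 0.923%. These 3 were above both spleens in both treated tumors. A single clonotype held 51.4% of the TRBV16 and TRBJ2-7 reads of treated tumor 1 and 77.0% of those of treated tumor 2, with different CDR3 sequences (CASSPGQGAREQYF and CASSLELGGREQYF).

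In the other 7 pairs the groups overlapped. TRBV5 with TRBJ1-6 was at 3.33% in treated tumor 2 and at 0.438% in treated tumor 1, beside 0.447% and 0.291% in the spleens. TRBV15 with TRBJ1-1 was at 3.70% and 0.457% beside 0.629% and 0.655%, and TRBV19 with TRBJ2-1 at 2.96% and 0.450% beside 0.419% and 0.454%. In these pairs the leading clonotype held 78.9%, 82.8% and 70.5% of the reads in the treated tumor where the pair was high. TRBV5 with TRBJ2-7 was at 1.42% and 3.12% beside 1.37% and 1.47%. TRBV13-1 with TRBJ2-7 was at 2.23% and 0.906% beside 1.22% and 1.13%. TRBV13-2 was at 3.23% and 1.04% beside 2.10% and 1.77% with TRBJ2-5, and at 2.53% and 1.79% beside 2.63% and 2.29% with TRBJ2-7. TRBV31 with TRBJ2-3, chosen after its values were seen as the pair of the lowest p, stood at 0.0745% and 0.0392% in treated tumors (62 and 22 reads) and at 0.721% and 0.673% in spleens (699 and 912 reads).

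CDR3 loops were of nearly the same mean length in both tissues, with fewer of 13 residues in the treated tumors. The read-weighted mean was 13.88 residues in each treated tumor and 13.85 and 13.81 in the spleens, a difference of 0.0497 residues (exact permutation p = 0.333, two-sided). It was 0.0296 without spleen 2, 0.115 without clonotypes of 1 read, and 0.0212, with overlapping groups, without the 10 leading clonotypes of each library. Loops of 13 residues took 15.7% and 17.6% of treated tumor reads against 20.3% and 21.3% of spleen reads, and 16.9% and 16.8% against 20.3% and 20.9% of clonotypes. Loops of 12 residues took 12.2% and 16.8% against 11.4% and 11.9% of reads, those of 14 residues 33.6% and 31.0% against 30.8% and 30.6%, and those of 16 residues 9.002% and 9.73% against 8.08% and 7.82%. Long loops of 17 or more residues took 1.48% and 2.18% against 2.47% and 2.39%. In each of these classes the treated tumors lay on 1 side of both spleens, but the exact permutation p cannot go below 0.333, and without the 10 leading clonotypes of each library the groups overlapped at 12, 14, 16 and 17 or more residues.

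**Figure D3:**
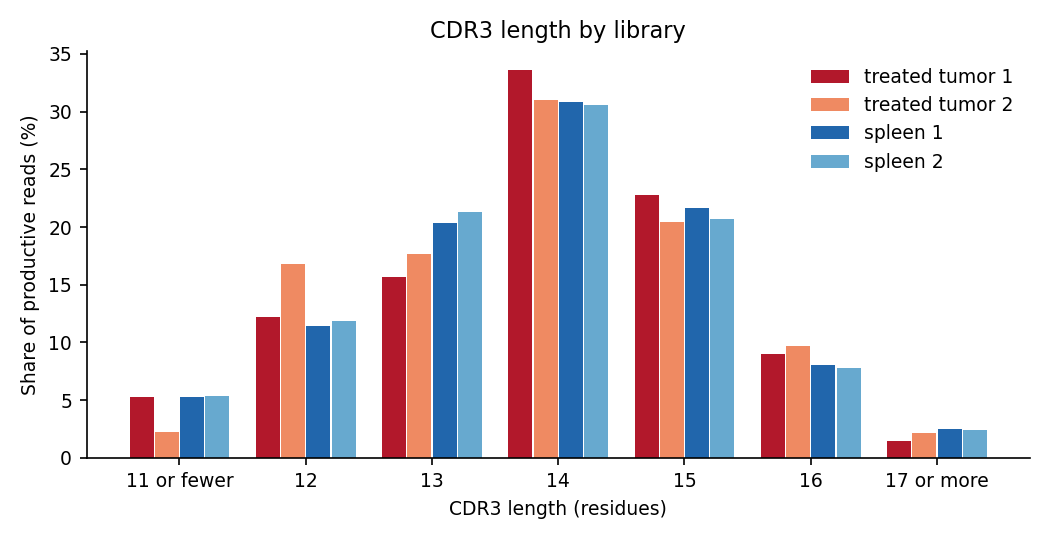
Share of productive reads (%) by CDR3 length in residues, with 1 bar per library and no error bars. At 13 residues both treated tumors, 15.7% and 17.6%, are below both spleens, 20.3% and 21.3%.

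Positions 6 and 7 of the loop were counted from its first listed residue, whether or not that was cysteine. Hydrophobic residues (F, I, L, M, V, W or Y) at both positions were rarer in treated tumor reads. Such loops held 0.745% and 0.252% of treated tumor reads against 1.25% and 1.24% of spleen reads, from 152, 69, 837 and 1224 clonotypes (difference -0.743 percentage points, exact permutation p = 0.333, two-sided). Positions 6 and 7 lie near the top of the loop, and hydrophobic residues there are known as a feature of self-reactive receptors. Spleen values weighted to the V-J usage of the treated tumor were 1.17% and 1.26%, against 0.727% and 0.227% observed in the treated tumors, all over loops with residues left after 4 are removed from each end. Per clonotype the shares were 1.19% and 0.915% against 1.29% and 1.33%, and with variants merged they overlapped, at 1.38% and 1.10% against 1.30% and 1.33%.

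An internal cysteine was found in 6.55% and 5.89% of treated tumor reads and in 9.29% and 8.12% of spleen reads. The germline end of TRBV1 itself encodes the residues CTCSA, and this gene held 5.55% and 4.87% against 8.51% and 7.16% of reads. Without TRBV1 the values for the cysteine were 1.19% and 1.17% against 1.10% and 1.23%, and the groups overlapped. Counted once per clonotype the direction turned, with 9.91% and 9.46% against 9.22% and 8.26%, and without TRBV1 the shares of clonotypes were 5.38% and 5.68% against 1.56% and 1.72%. With variants merged the shares of clonotypes were 10.4% and 10.0% against 9.21% and 8.26%. By reads without clonotypes of 1 read they were 5.98% and 5.36% against 9.37% and 7.80%. Clonotypes of 1 read were 10011 of 12761 and 6229 of 7539 in the treated tumors, and their part in the turn was not tested. The middle of the loop, taken as the residues left after 4 are removed from each end, had a mean net charge of -0.457 and -0.509 in the treated tumors and -0.474 and -0.458 in the spleens. Its mean Kyte-Doolittle hydropathy was -1.20 and -1.08 against -1.17 and -1.15, and glycine, the residue that the D segments encode most often, made up 21.5% and 22.9% against 21.4% and 21.6% of it. For charge, hydropathy and glycine the groups overlapped (exact permutation p = 1, 1 and 0.667, two-sided). Net negative middles took 47.9% and 54.7% of treated tumor reads against 47.4% and 47.0%, but the groups overlapped per clonotype, at 44.9% and 48.1% against 46.6% and 45.99%, and without clonotypes of 1 read. Net positive middles overlapped by reads, at 15.4% and 12.3% against 12.6% and 13.2%, and were above both spleens per clonotype, at 18.3% and 17.4% against 13.7% and 14.0%. Among middle residues, weighted by reads, glutamate was above both spleens, with 6.19% and 6.18% against 5.34% and 5.41%, while aspartate was below, with 8.02% and 8.67% against 9.39% and 9.14%.

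Clonotypes were then compared between each treated tumor and the spleen of the same number. Most reads of the treated tumors belonged to clonotypes that were rare in or absent from the spleen reads. A clonotype was called enriched where Fisher's exact test on its reads gave an adjusted p under 0.05 and its share was at least 10 times that in the spleen, with 0 spleen reads set to 3. Such a test compares 2 libraries and not the tissues. In number 1, 1554 clonotypes reached 10 reads over tumor and spleen, of which 1325 (85.3%) were higher in the tumor, and 592 (38.1%) were enriched. In number 2, 628 of 869 (72.3%) were higher and 538 (61.9%) enriched. The minimum of 10 reads was passed by 998 clonotypes found only in the tumor and 163 only in the spleen in number 1, and by 358 and 227 in number 2, so that the shares higher depend on which clonotypes could be tested and are no measure of all clonotypes.

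The enriched clonotypes held 63.9% (exact 95% binomial interval 63.6 to 64.3) of the reads of treated tumor 1 and 0.538% (0.493 to 0.586) of those of spleen 1. In number 2 they held 78.9% (78.6 to 79.3) of tumor reads and 0.594% (0.553 to 0.636) of spleen reads. The call itself requires a share at least 10 times that in the spleen, so that the gap between tumor and spleen follows from the rule. The intervals do not cover the choice of clonotypes by these same reads. Of the 592, 369 had no spleen read, 126 had 1, 88 had 2 to 9 and 9 had 10 or more, and of the 538 the numbers were 332, 85, 108 and 13. Without a spleen read, a clonotype needed at least 26 tumor reads in number 1 and 13 in number 2 to be enriched. With 1 or 2 spleen reads the floor did not apply, and the fewest tumor reads of an enriched clonotype were 9 in each number. The split by spleen reads thus leans toward clonotypes with a spleen read. Absence from the reads still permits a share up to 0.0031% in spleen 1 and 0.00221% in spleen 2. Drawn to 56057 reads per library, on average 342.9 and 382.4 clonotypes were enriched.

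Treated tumor 1 was led by a TRBV15 and TRBJ1-1 clonotype with a CDR3 of 15 residues, which had 2550 reads (3.07%) against 6 in spleen 1, a ratio of 495 (exact 95% interval 227 to 1351). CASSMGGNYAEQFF followed with 1736 reads (2.09%) against 1, a ratio of 2023 with a counting interval from 363 to 79938. A TRBV12-2 and TRBJ2-2 clonotype of 16 residues had 1560 reads against 1 (ratio 1818, interval 326 to 71838). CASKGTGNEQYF, with 1272 reads, had none in spleen 1 and was at least 494-fold higher. These 4 were absent from the reads of treated tumor 2. They are ranked 1, 2, 3 and 5 in treated tumor 1. The clonotype of rank 4, with TRBV13-2 and TRBJ2-2 and 14 residues, had 1365 reads there and 269 in treated tumor 2.

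Others of treated tumor 1 were also seen in the spleen. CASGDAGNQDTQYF had 1206 reads against 20 in spleen 1, a ratio of 70.3 (45.3 to 115), with 17 reads in treated tumor 2 and 32 in spleen 2. The TRBV5 and TRBJ1-3 clonotype of 15 residues had 791 against 18, a ratio of 51.2 (32.2 to 86.8). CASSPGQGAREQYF (1006 reads), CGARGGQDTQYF (922) and a TRBV1 and TRBJ2-3 clonotype of 16 residues (805) had no read in spleen 1, and were at least 391-, 358- and 313-fold higher.

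Treated tumor 2 was led by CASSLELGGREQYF, with 2172 reads (3.87%) against 5 in spleen 2 and 6 in spleen 1 (ratio 1051, exact 95% interval 449.6 to 3239). TRBV5 clonotypes took 4 of its 10 places: one with TRBJ2-3 and 15 residues had 1740 reads against 2 (ratio 2104, interval 582 to 17391). One with TRBJ1-6 and 16 residues had 1473 reads, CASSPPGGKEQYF 1347 and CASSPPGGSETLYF 854, each with no read in either spleen, and they were at least 1188-, 1086- and 689-fold higher. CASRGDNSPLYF (1061 reads) and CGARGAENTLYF (1017) likewise had no spleen read (at least 856- and 820.0-fold). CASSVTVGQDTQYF had 1019 reads against 1 (ratio 2465, interval 441 to 97453).

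At the other end of these 10, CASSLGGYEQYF had 905 reads against 10 in spleen 2 (ratio 219, 118 to 458). A TRBV13-2 and TRBJ2-1 clonotype of 14 residues had 758 reads against 146 (ratio 12.6, 10.5 to 15.1). The latter was also the fourth most abundant clonotype of spleen 2. Of the 20 leading enriched clonotypes it was the one nearest to the 10-fold limit.

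**Figure D4:**
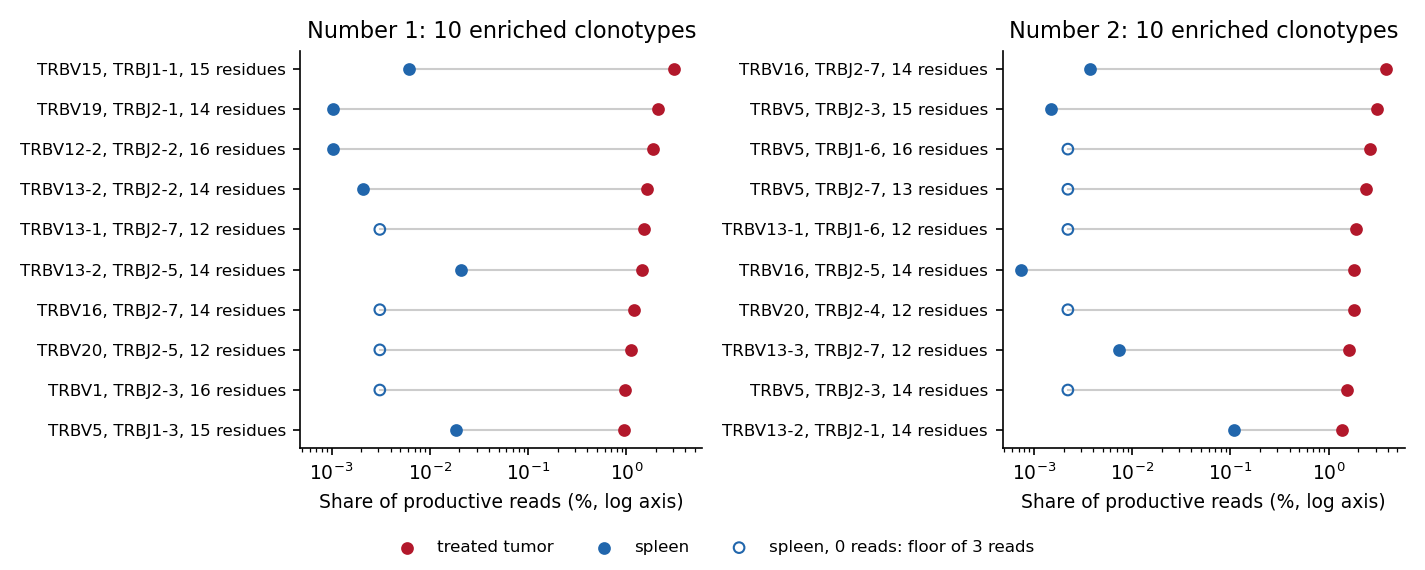
Share of productive reads (%, log axis) in the treated tumor (red) and the spleen of the same number (blue) for the 10 enriched clonotypes with the most tumor reads in number 1 (left) and number 2 (right), 1 library per point and no error bars. Open points mark 0 spleen reads, drawn at the floor of 3 reads, and the largest spleen share belongs to the TRBV13-2 and TRBJ2-1 clonotype with 146 spleen reads.

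The most used V gene of the spleens also led among the enriched clonotypes of both numbers. TRBV13-2 was carried by 78 of 592 (13.2%) and 57 of 538 (10.6%) enriched clonotypes, and by 13.3% and 11.8% of spleen clonotypes. TRBV5 was carried by 8.11% and 7.99% of them against 7.09% and 7.21% of spleen clonotypes, yet held 10.5% and 19.2% of the enriched reads. TRBV26 was carried by 5.91% and 5.58% against 2.73% and 3.94%, TRBV2 by 4.05% and 3.903% against 2.58% and 2.86%, and TRBV14 by 3.38% and 4.65% against 2.37% and 2.23%. Lower shares of the enriched clonotypes in both numbers were found for several genes. TRBV12-1 had 4.05% and 2.04% against 5.37% and 5.46%, and TRBV16 had 4.73% and 4.65% against 6.94% and 6.99%. TRBV15 had 2.70% and 3.16% against 4.69% and 5.39%, and TRBV1, TRBV4, TRBV17 and TRBV31 were lower too. TRBV16 nevertheless held 11.05% of the enriched reads of number 2. These values are descriptions, since no test was made over clonotypes. Enriched clonotypes held 3.56 and 3.79 residues between germline ends (SD 1.30 and 1.32), and spleen clonotypes of 2 or more reads 3.65 and 3.64.

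Of the 592 enriched clonotypes of number 1, 26 had any read in treated tumor 2, and of the 538 of number 2, 24 had any in treated tumor 1 (4.39% and 4.46%). Of all clonotypes, 111 were shared by the treated tumors, 0.870% of those of tumor 1 and 1.47% of those of tumor 2. Enriched clonotypes had at least 9 reads, whereas 10011 of all 12761 and 6229 of all 7539 clonotypes had 1 read. The shares are thus not at equal reads, and sharing at equal reads was not tested. In all, 10 clonotypes were enriched in both numbers, 1.69% of the 592 and 1.86% of the 538, and they held 3.24% of the reads of treated tumor 1 and 2.19% of those of treated tumor 2. The TRBV13-2 and TRBJ2-2 clonotype of 14 residues had the most reads, which were 1365 and 269 in tumor 1 and tumor 2 but 2 and 5 in spleen 1 and spleen 2. The other 9 are shown because they recurred in both treated tumors.
TRBV12-1 with TRBJ2-7, 462 and 73 tumor reads, 1 and 1 spleen reads: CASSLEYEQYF
TRBV26 with TRBJ2-5, 214 and 120 tumor reads, 2 and 9 spleen reads: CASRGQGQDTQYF
TRBV13-2 with TRBJ2-5, 161 and 37 tumor reads, 0 and 0 spleen reads: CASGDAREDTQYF
TRBV12-2 with TRBJ2-7, 150 and 19 tumor reads, 5 and 1 spleen reads: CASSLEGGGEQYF
TRBV13-3 with TRBJ2-1, 120 and 238 tumor reads, 12 and 4 spleen reads: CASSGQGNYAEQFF
TRBV31 with TRBJ1-4, 82 and 28 tumor reads, 1 and 6 spleen reads: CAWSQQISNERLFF
TRBV31 with TRBJ1-4, 64 and 77 tumor reads, 2 and 4 spleen reads: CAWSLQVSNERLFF
TRBV17 with TRBJ2-4, 39 and 64 tumor reads, 0 and 2 spleen reads: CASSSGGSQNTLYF
TRBV20 with TRBJ1-3, 35 and 301 tumor reads, 0 and 22 spleen reads: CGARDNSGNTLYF
These 10 clonotypes held 2.7 residues on average between the V and J ends, from 1 to 4, where the enriched clonotypes of each number held 3.56 and 3.79. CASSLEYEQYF held a single residue (E) there, and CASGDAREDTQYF was in neither spleen.

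The TRBV31 and TRBJ1-4 pair held a family of near-identical loops, described here after its values were seen and therefore without a test. Its members have 14 residues and read CAWS, any residue, Q, I or V, and SNERLFF, so that they differ only at positions 5 and 7. They were 14 clonotypes in all, of which 4 were enriched in number 1, 3 in number 2 and 2 in both. The largest member, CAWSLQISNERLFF, counted 421 and 16 tumor reads beside 10 and 19 spleen reads. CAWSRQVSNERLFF had 123 reads in treated tumor 1 and none in the other 3 libraries, and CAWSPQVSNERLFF had 135 and 16 reads against 167 and 22. Summed, the family took 1.12% and 0.294% of treated tumor reads against 0.207% and 0.0546% of spleen reads. Within the reads of its V-J pair it took 77.1% and 61.3% against 32.8% and 11.6%, although TRBV31 itself was lower in both treated tumors.

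Across numbers, 38 pairs of enriched clonotypes shared V, J and length and differed by 1 residue, over 66 clonotypes. Within number 1 there were 30 such pairs, of which 2 had a ratio of reads above 50, the ratio used for merging, and within number 2 there were 17, of which 5 did. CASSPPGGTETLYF, with TRBV5 and TRBJ2-3, had 143 reads in treated tumor 1 and 2 in treated tumor 2, where its neighbour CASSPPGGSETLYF had 854. With TRBV3 and TRBJ2-7, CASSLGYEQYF had 171 and 38 treated tumor reads and 9 and 10 spleen reads, and its neighbour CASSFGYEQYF had 55 in treated tumor 2 alone. With TRBV2 and TRBJ2-7, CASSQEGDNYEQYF had 13 and 255 reads and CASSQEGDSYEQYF 46 and 0, with no spleen read of either. Of the 38 pairs across numbers, 0 had such a ratio. There the ratio set reads of treated tumor 1 against reads of treated tumor 2, while merging compares reads within 1 library. The 0 therefore cannot tell whether a member is a variant of its neighbour within either library.

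Depletion could be called for few clonotypes. For a clonotype with 0 tumor reads, set to 3, it needed 35 spleen reads in number 1, which 22 spleen clonotypes reached, and 73 in number 2, which 6 reached. With 1 or 2 tumor reads this floor did not apply and fewer spleen reads could suffice, as for both depleted clonotypes of number 2. In number 1, 13 of 1554 clonotypes (0.837%) were depleted, with a share at least 10 times lower than in the spleen, and in number 2 there were 2 of 869 (0.23%). The leading clonotype of spleen 1, with TRBV14 and TRBJ1-6 and 15 residues, had 236 reads there and 3 in treated tumor 1 (67.5-fold lower, exact 95% interval 22.8 to 329.7). In number 2 the same clonotype counted 356 tumor reads and 11 spleen reads. A TRBV5 and TRBJ1-6 clonotype of 15 residues had 103 reads in spleen 1 and none in treated tumor 1 (at least 29.5-fold lower). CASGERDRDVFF, with TRBV13-2 and TRBJ1-1, had 84 and 0 (at least 24.0-fold lower), and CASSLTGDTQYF, with TRBV15 and TRBJ2-5, had 65 and 0 (at least 18.6-fold lower). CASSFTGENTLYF, with TRBV4 and TRBJ2-4, had 92 reads in spleen 1 and 2 in treated tumor 1 (39.5-fold lower, 10.6 to 331). In number 2, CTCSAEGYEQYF with TRBV1 and TRBJ2-7 had 27 reads in the spleen and 1 in the tumor (11.2-fold lower, 1.84 to 457). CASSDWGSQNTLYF with TRBV13-1 and TRBJ2-4 had 25 and 1 (10.3-fold lower, 1.69 to 424). With 1 tumor read the intervals of both reach far below 10-fold.

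Abundant treated tumor clonotypes were found in a spleen more often when that spleen had the same number. With both spleens at 96907 reads, 47.7% of the 109 clonotypes of at least 100 reads in treated tumor 1 had a read in spleen 1, and 29.2% had one in spleen 2. For the 85 such clonotypes of treated tumor 2 the shares were 48.0% in spleen 2 and 11.8% in spleen 1. At full depth, where spleen 2 is the deeper, the exact 95% binomial intervals were 38.1 to 57.5% (spleen 1) and 24.3 to 42.7% (spleen 2) for number 1, and 40.7 to 62.7% (spleen 2) and 5.79 to 20.6% (spleen 1) for number 2. They describe clonotypes of single libraries, and no test was made between spleens. Among clonotypes of 10 to 99 reads the shares were 23.4% and 13.4% in number 1 and 35.9% and 14.8% in number 2, the spleen of the same number first. Clonotypes of 1 read were found in 1.57% against 1.62% and in 1.77% against 1.51%, with no such order.

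**Figure D5:**
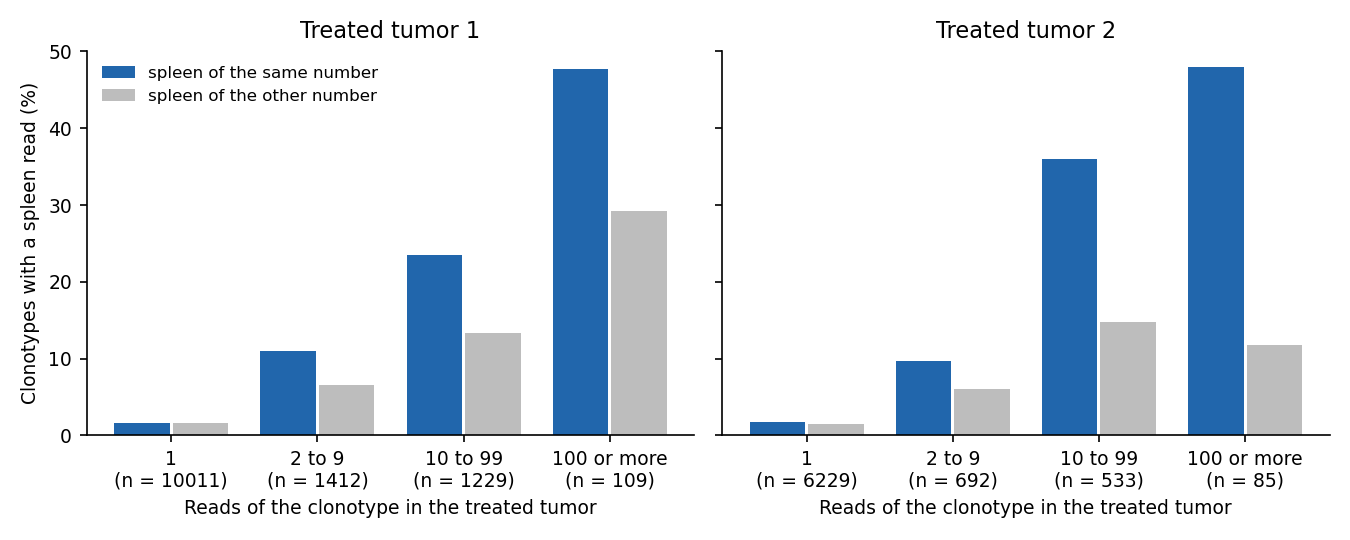
Percentage of treated tumor clonotypes with at least 1 read in the spleen of the same number (blue) and of the other number (grey), by the reads of the clonotype in the treated tumor, with both spleens at 96907 reads. In the class of 100 reads or more, the blue bars reach 47.7% and 48.0% and the grey bars 29.2% and 11.8%.

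Of the reads of treated tumor 1, 64.4% lay on clonotypes without a read in spleen 1, 15.5% on those with 1 or 2 spleen reads, 12.1% on those with 3 to 9 and 7.98% on those with 10 or more. In number 2 the shares were 57.3%, 17.9%, 14.0% and 10.8%. The remainder after the first class in each number belonged to clonotypes also sampled in the spleen of that number.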

How the data were processed

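Beta chain transcripts of total RNA were amplified with an adaptor primer and a constant region primer and sequenced on an Illumina MiSeq with paired reads of 300 bases, per the labels' protocols. The authors deposited read counts for each combination of TRBV, TRBJ and CDR3 residues, per the file headers. The program that assigned genes, its germline reference and any error correction were not given in the sources used here, and molecular identifiers are not mentioned. Rows whose CDR3 held a stop or frameshift mark (4.45 to 6.62% of the reads of the 4 libraries) were left out, and rows without a gene numbered 0. Productive reads per library ranged from 56057 to 135599, and 1 read was worth 0.000737 to 0.00178% of a library. All 35 gene names matched GENCODE M21.

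Usage was tested on read counts with edgeR 4.0.16 (R 4.3.3) by its quasi-likelihood test, with 4 libraries, 2 residual degrees of freedom, scaling by the library total, filterByExpr and Benjamini-Hochberg adjustment at 0.05. DESeq2 1.42.0 was an alternative. Single values were compared by exact permutation tests (SciPy 1.17.1), which with 2 libraries a group cannot go below 0.333. P-values measure the spread between 2 libraries a group, said to come from 2 mice. Equal-depth values are means of 100 draws without replacement to 56057 reads (96907 for finding clonotypes in spleens, and 20 draws for the count of enriched clonotypes). Named genes were those past the threshold, the 5 largest changes among TRBV genes of at least 1% mean share, the 5 most used TRBV genes in treated tumors, all TRBJ genes and the 10 pairs most used in treated tumors. Named clonotypes were, per number, the 10 enriched with the most tumor reads and the 5 depleted with the most spleen reads, and those enriched in both. Members and lists were chosen with earlier results of these data known. CDR3 sequences of 15 or more residues, and a few shorter ones, are named by genes and length. The alternatives were other scalings, tools, filters, units and limits, all 6 libraries in the fit, merging of 1-residue variants (chosen after seeing the data), and leaving out each library.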

Additional observations from a re-analysis of the deposited data

How the results depend on the processing

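With 2 libraries a group, the count of called genes rests on the treated tumors: without either of them the spread comes from the spleens alone. Leaving out each library in turn gave 0 (either spleen) to 12 TRBV genes, 0 to 8 TRBJ genes and 0 to 160 pairs called, against 0 with all 4. Counting each clonotype once gave 2 TRBV genes and 1 TRBJ gene, and merging 1-residue variants as well gave 6 TRBV genes. DESeq2 called 1 TRBJ gene and 8 pairs. As a replicate block, the title number gave 0 TRBV genes, 0 TRBJ genes and 1 pair (TRBV31 with TRBJ2-3, lower). The deviations of TRBV shares within a number correlated at 0.184 over 22 genes, and 653 clonotypes were shared by treated tumor 1 and spleen 1 (534 with spleen 2) and 475 by treated tumor 2 and spleen 2 (225 with spleen 1). Enriched clonotypes numbered 234 and 207 at a minimum of 50 reads, and in number 1 there were 1096 at 5-fold, 276 at 20-fold and 342.9 at equal depth. The cause of these shifts beyond the limits themselves was not tested.

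The following differences changed sign, and the cause was not tested. With all 4 libraries edgeR called none of the genes and pairs among them, and DESeq2 called TRBJ2-7 and TRBV16/TRBJ2-7. The TRBJ2 cluster share went from 0.465 to -0.0942 with clonotypes counted once, -0.344 with variants merged too and -1.80 without the 10 leading clonotypes (-2.18 to 3.11 with a library left out). Middle charge went from -0.017 to 0.0453 (once), 0.0702 (merged) and 0.00363 (without clonotypes of 1 read), with -0.0434 to 0.00939 when a library was left out. Hydropathy went from 0.0221 to -0.0598 and -0.0651 (once, merged; -0.0373 to 0.0814 with a library left out), and glycine from 0.701 to -0.796, -0.979 and, without the 10 leading clonotypes, -0.785 percentage points. Log2 fold changes counted once became -0.067 for TRBV13-1, -0.16 for TRBV16, -0.0156 for TRBJ2-2, -0.0048 for TRBJ2-7 and -0.077 for TRBV13-1/TRBJ2-7. With variants merged, the values were -0.073 for TRBV13-1, -0.23 for TRBV16, -0.0152 for TRBJ2-2 and -0.088 for TRBV13-1/TRBJ2-7. Without the 10 leading clonotypes they were -0.54 for TRBV16, 0.18 for TRBJ1-2, 0.20 for TRBJ1-4, -0.27 for TRBJ2-2, -0.078 for TRBJ2-7, -0.26 for TRBV13-1/TRBJ2-7, -0.18 for TRBV13-2/TRBJ2-5, 0.093 for TRBV13-2/TRBJ2-7, -0.054 for TRBV16/TRBJ2-7 and -0.13 for TRBV5/TRBJ2-7. The replicate block gave -0.049 for TRBV16, -0.079 for TRBJ2-2 and -0.074 for TRBV13-2/TRBJ2-5, TMM gave -0.037 for TRBJ2-2 and 0.45 for TRBV13-2/TRBJ2-7, DESeq2 gave 0.39 for the latter, and leaving out clonotypes of 1 read gave -0.0084 for TRBV13-2/TRBJ2-5. With a library left out, log2 fold changes ran from -0.47 to 0.58 for TRBV12-2, -0.068 to 0.40 for TRBV13-1, -0.48 to 0.083 for TRBV13-2, -0.65 to 0.55 for TRBV16, -0.90 to 0.33 for TRBJ1-1, -0.60 to 0.14 for TRBJ1-3, -0.54 to 0.21 for TRBJ1-4, -0.068 to 0.33 for TRBJ2-1 and -0.57 to 0.41 for TRBJ2-2. For pairs they ran from -0.38 to 0.92 for TRBV13-1/TRBJ2-7, -0.90 to 0.74 for TRBV13-2/TRBJ2-5, -0.46 to 0.040 for TRBV13-2/TRBJ2-7 and -0.49 to 2.53 for TRBV15/TRBJ1-1. The other values of named genes and pairs kept their direction: 322 stayed on their side of the threshold and 41 passed it.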
